A study of Mus musculus with 2 samples.

Results

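The killer lectin receptor genes encode type II membrane proteins with a C-type lectin-like domain that natural killer (NK) cells, innate lymphoid cells and some T cells use to sense other cells. Members were taken as every gene symbol made of Klr and a following letter from a to k. This rule uses symbols alone, but it was set with earlier results of these data known. The rule found 27 of the 28200 genes listed in either library, 27 in one and 26 in the other. In mice most of them lie together on chromosome 6, in the NK gene complex.

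Each receptor works either through an inhibitory motif in its tail, which recruits the phosphatases SHP-1 and SHP-2, or by pairing with a signalling adaptor such as DAP12 (Tyrobp) or DAP10 (Hcst). Many inhibitory members read class I molecules of the major histocompatibility complex (MHC) on neighbouring cells, and activating members read stress-induced or related ligands. The Ly49 receptors (Klra genes) are switched on in a variegated way, so that each NK cell carries its own combination. In the liver, NK cells stand beside type 1 innate lymphoid cells (ILC1), a resident population that shares most of these receptors but depends less on the transcription factor Eomes.

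Liver cells of a knockout male mouse and a littermate were captured on the BD Rhapsody system, a whole transcriptome method for single cells, after partial inferior vena cava ligation (pIVCL), a surgery that congests the liver. Both animals carried floxed alleles of Ctgf, the gene now named Ccn2 (Ctgffl/fl), and the knockout also carried Cdh5-CreERT2, a tamoxifen-inducible Cre recombinase under the promoter of an endothelial cadherin gene. Both libraries carry the same batch label, and age and strain were not given in the sources used here. The sample titles name the genotypes the other way round from the genotype labels, so the libraries are called control-labelled and knockout-labelled, by genotype label. In endothelial cells Ccn2 stood at 1092 and 5.09 CPM, the control-labelled library first, as in every pair of values given without a library name.

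Each label has 1 library, so no test between them was possible, and no p-value is given. Levels are CPM, the counts of a gene scaled to a total of 1e6 counts in a cell class, ratios are log2 of knockout-labelled over control-labelled, and the ranges in parentheses are exact 95% intervals for counting error only. After filtering, 7573 and 8428 cells of 10000 barcodes each were used, and 2 barcodes occurred in both libraries. The Klr genes took no part in clustering, naming or gating. Within the T and NK clusters, NK or ILC1 cells were those with no Cd3d, Cd3e or Cd3g count and at least 1 count of Ncr1, Eomes or Tbx21. This gave 127 and 72 cells, at a median of 5552 and 5659.5 counts per cell. CD8 T cells (91 and 105) had Cd3 and Cd8a or Cd8b1 counts without Cd4, CD4 T cells (63 and 99) had Cd4 without Cd8, and the remaining Cd3-positive cells (141 and 144) are called other T cells. All 8 NK or ILC1 markers were present in the NK or ILC1 gate of both libraries, at a summed 7181 and 7483 CPM.

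Of the 27 members, 23 reached at least 20 counts over both libraries in some class and are described. Klra10 had 8 and 7 counts in all cells together, Klrb1 had 17 and 10, and Klrh1 had 4 in the control-labelled library and none in the other. Klrg2 had 68 and 57 counts spread thinly over classes, with its highest level in 4 of 34 plasma cells of the knockout-labelled library. Part of the family is so alike that reads may not separate its members: 39.8% of the 50-base windows in the transcripts of Klra10 also occur in another gene, as do 38.6% for Klrc1, 36.3% for Klrc3, 33.1% for Klra8, 31.5% for Klra9 and 27.2% for Klrb1b. For Klra2, Klra17, Klrb1f, Klrd1, Klrk1 and Klrg1 no window was shared.

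Summed over the family, the NK or ILC1 gate held the highest level in both libraries, at 5275 (5129 to 5424) and 8365 (8101 to 8636) CPM. Other T cells followed at 3346 and 4042 CPM, CD8 T cells at 1697 and 1047 CPM and CD4 T cells at 846 and 1055 CPM. B cells, which as a lineage lack most of these receptors and serve as the background, had 58 and 16.7 CPM at median depths of 4519 and 4056 counts. All 18 members measured in that comparison in the control-labelled library, and all 16 in the knockout-labelled one, were at least 1.5-fold higher in NK or ILC1 cells than in B cells, where 31.6% and 29.4% of all measured genes were. None was lower, against 17.6% and 20.2% of all genes. A gene counts as measured with at least 20 counts over the compared cells and 10 CPM in at least 1 side. B cells held 57 and 19 Klr counts in all, so members were measured almost only through NK or ILC1 cells. Their direction in this comparison was therefore largely fixed.

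The family was also found outside the lymphocytes. Summed levels were 679 and 709 CPM in plasmacytoid dendritic cells (pDC), 473 and 545 CPM in monocytes, 292 and 336 CPM in Kupffer cells, the resident liver macrophages, and 259.8 and 278 CPM in conventional dendritic cells (cDC). Kupffer cells held 8.86% of all Klr counts in the control-labelled library and 28.3% in the knockout-labelled one, where 1354 of them were kept against 623. Endothelial cells held 22.5 and 8.65 CPM.

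**Figure D1:**
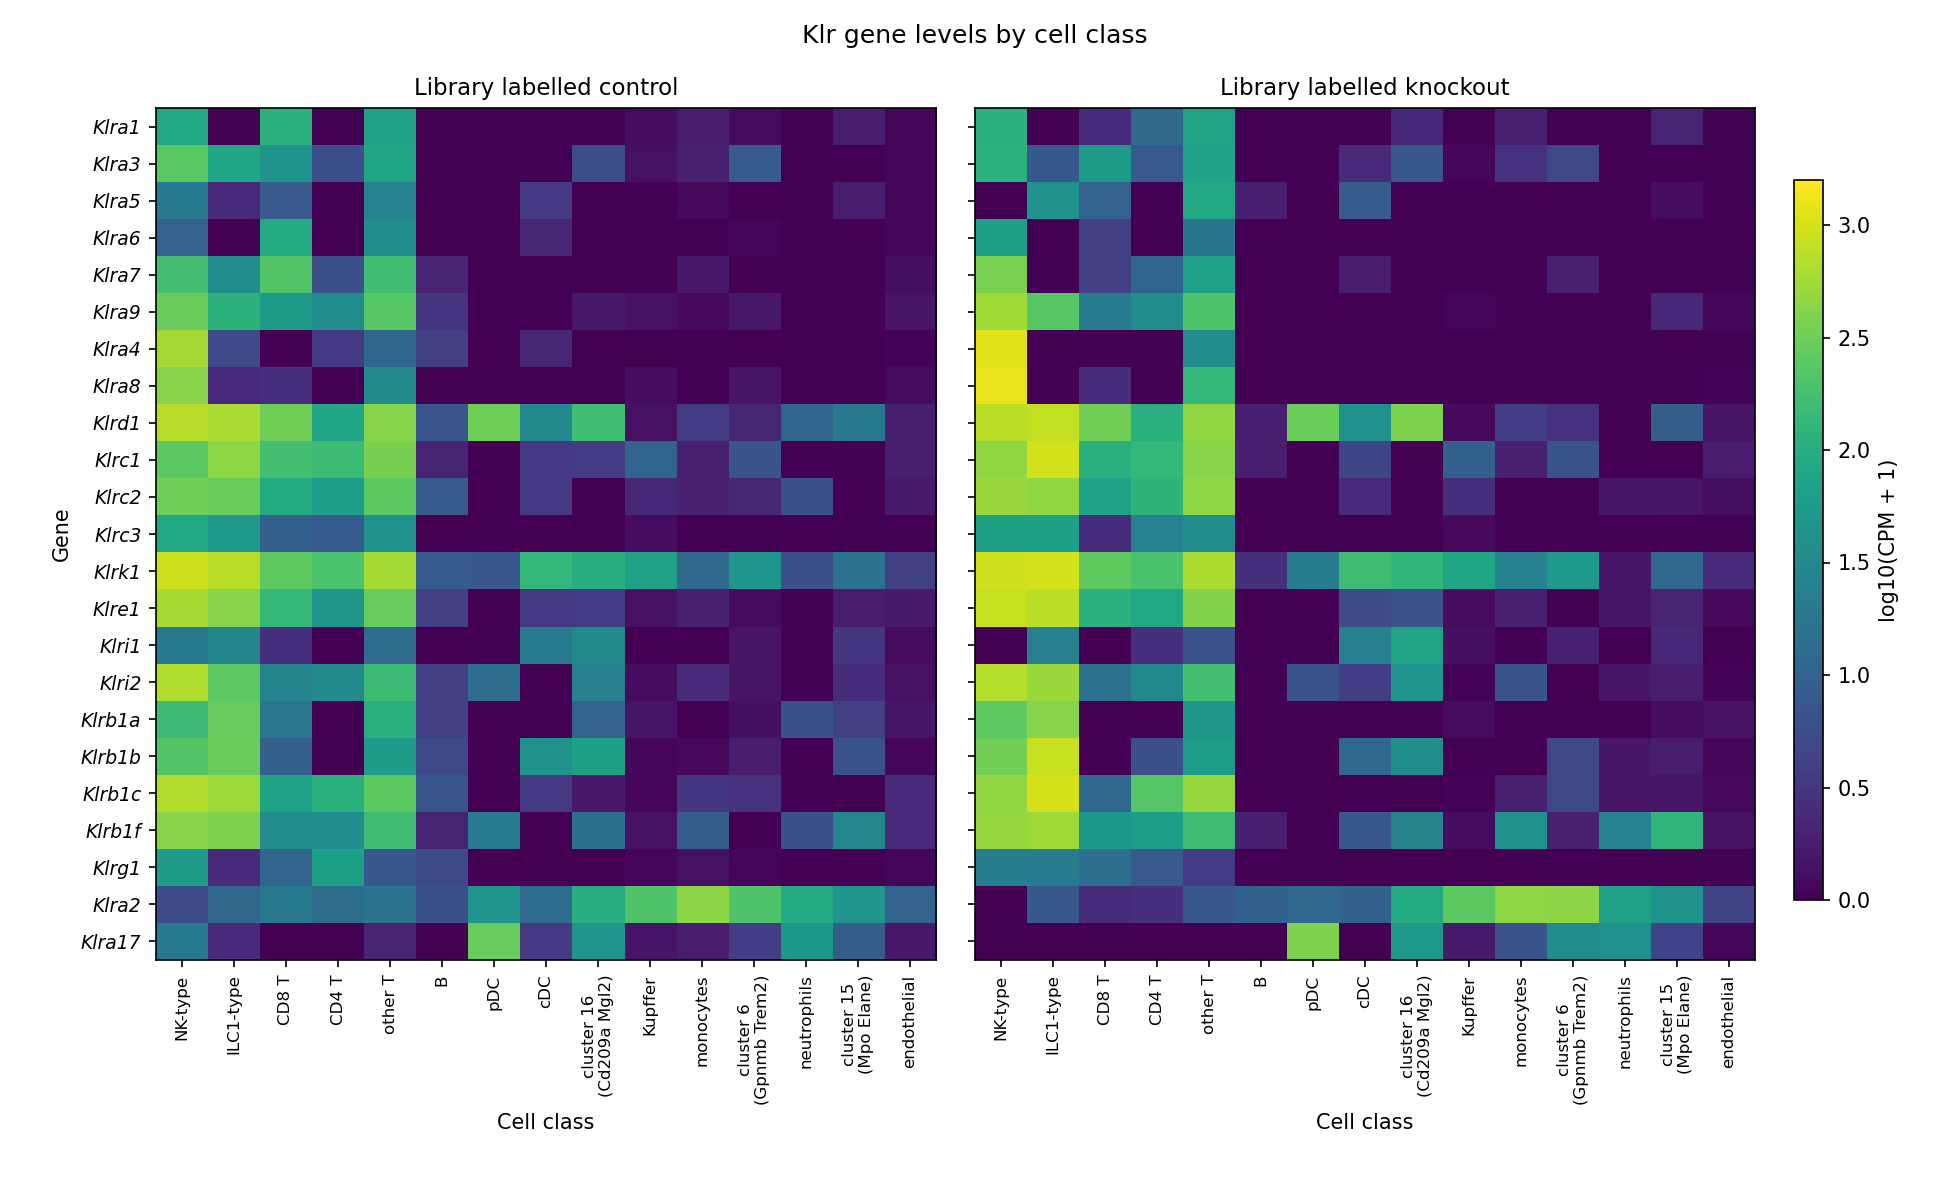
Level of each described Klr gene (rows) in each cell class (columns), as log10 of CPM + 1 on a colour scale from dark (0) to bright, with 1 panel per library. Most receptors are bright in the NK-type, ILC1-type and other T columns and dark in B cells, while Klra2 is brightest in monocytes and Klra17 in pDC.

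In NK or ILC1 cells the summed family level was higher in the knockout-labelled library, with a log2 ratio of 0.67 (0.60 to 0.73). Of the 20 members measured there, 10 were at least 1.5-fold higher and 1 was at least 1.5-fold lower in the knockout-labelled library, against 15.3% and 18.3% of all 8377 genes measured in the gate. The median log2 ratio over the 20 members was 0.59, and over all measured genes 0.03. Markers of other lineages also differed between the libraries. Summed endothelial markers in the gate, all 8 of 8 present, stood at 3218 and 1428 CPM, hepatocyte markers at 524 and 172, Kupffer markers at 489 and 192, and monocyte markers at 586 and 785. Cells with more than 2 counts of a defining marker of another lineage made up 40 of 127 and 15 of 72. Without those cells, a comparison chosen after the data had been seen, the family ratio was 0.32 (0.25 to 0.39), with 6 members higher and 3 lower of 20. With gates drawn over all cells low in other markers, it was 0.26 (0.19 to 0.33), with 3 members higher and 3 lower. Ccn2 itself was counted at 182 and 0 in the gate.

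**Figure D2:**
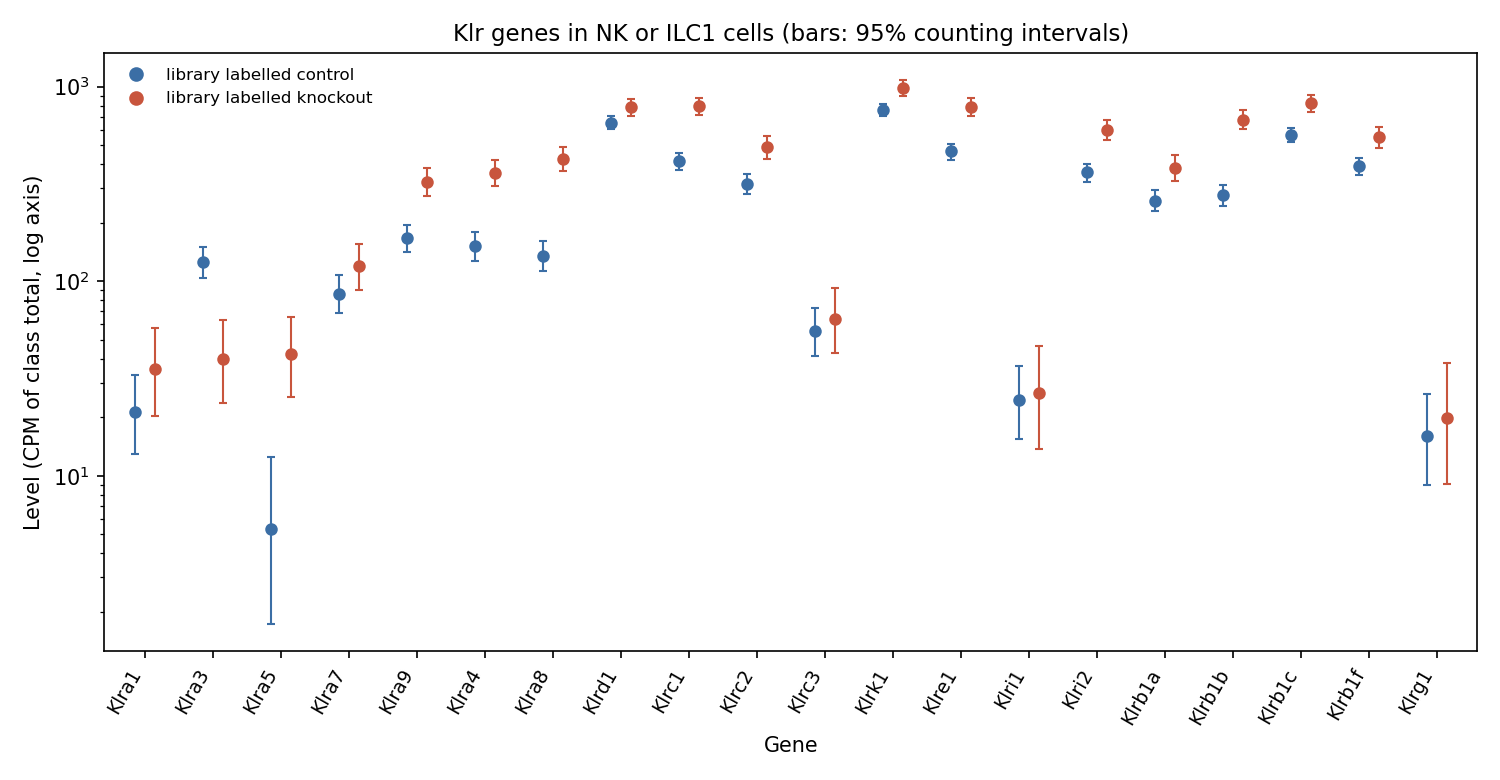
Level in NK or ILC1 cells of each Klr gene described there (x axis), in CPM on a log y axis, with 1 point per library and bars for the exact 95% Poisson interval. Most points of the knockout-labelled library sit above those of the control-labelled one (Klra8 at 424 against 135 CPM), and Klra3 sits below (39.8 against 126 CPM).

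Among the inhibitory Ly49 receptors, Klra3 (Ly49C), which binds the MHC class I molecule H-2Kb, was the member that stood lower in the knockout-labelled library. It was at 126 (104 to 150.5) and 39.8 (23.6 to 62.9) CPM in NK or ILC1 cells, with counts in 31 of 127 and 6 of 72 cells. The log2 ratio was -1.66 (-2.46 to -0.94), and it ranged from -2.11 to -1.55 over the 15 alternative settings. Of its transcript windows 20.7% occur in another gene, with the largest part in Klra9 (13.5%).

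Klra9 (Ly49I), another receptor for H-2Kb, went the other way. Its level was 166 (141 to 194) and 325 (275 to 382) CPM, in 32 of 127 and 22 of 72 cells, a ratio of 0.97 (0.63 to 1.30). Of the Klra9 windows 13.1% occur in Klra3, so reads could pass between these genes and their opposite ratios may not be separate. The intervals of both genes hold counting error only, from 1 animal per label. Klra7 (Ly49G), an inhibitory receptor for H-2D molecules, was at 86.3 and 119 CPM, and Klra1 (Ly49A), which also reads H-2D, at 21.3 and 35.4 CPM. Their ratios, 0.47 (-0.06 to 0.98) and 0.73 (-0.31 to 1.75), include 0. Klra5 (Ly49E) had 5 counts in 3 cells and 19 counts in 2 cells, and 68.4% of the 19 came from 1 cell, so its value rests on single cells. Klra6 (Ly49F) had 2 and 9 counts.

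The activating Ly49 receptors Klra4 (Ly49D) and Klra8 (Ly49H) signal through DAP12, and Ly49H is known for recognising a protein of mouse cytomegalovirus. Klra4 stood at 151 (127 to 178) and 360.4 (307 to 420.1) CPM, in 16 of 127 and 11 of 72 cells, a ratio of 1.25 (0.92 to 1.59). Klra8 stood at 135 (113 to 161) and 424 (367 to 489) CPM, in 15 of 127 and 12 of 72 cells, a ratio of 1.65 (1.32 to 1.98). Klra8 had 127 counts in 15 cells and 192 counts in 12. Klra8 passed 1.5-fold in all 15 alternative settings (1.21 to 1.70) and Klra4 in 14.

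Klra4 and Klra8 were found in the same cells. Of the 16 and 15 control-labelled NK or ILC1 cells with either one, 9 had both, and of the 11 and 12 knockout-labelled cells, 8 had both. Of the Klra4 windows 4.68% occur in another gene, most of them in Klra1 (4.26%), and of the Klra8 windows 33.1%, with the largest part in the pseudogene Klra14-ps (20.4%).

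Promoter sequences show how close these genes are, and they are printed for the pair that was found together in NK-type cells and for the Ly49 genes found outside lymphocytes. RefSeq's table (build GRCm38.p6) held 24 of the 27 members, from 250 bases before to 50 after the annotated start. The 4 shown lie on the minus strand of chromosome 6, at chr6:130067222-130067521 for Klra4, chr6:130129849-130130148 for Klra8, chr6:131247313-131247612 for Klra2 and chr6:129876623-129876922 for Klra17. Each is written 5′ to 3′ in the direction of transcription, with capitals for the letters of 3 short motifs searched on both strands.
Klra4: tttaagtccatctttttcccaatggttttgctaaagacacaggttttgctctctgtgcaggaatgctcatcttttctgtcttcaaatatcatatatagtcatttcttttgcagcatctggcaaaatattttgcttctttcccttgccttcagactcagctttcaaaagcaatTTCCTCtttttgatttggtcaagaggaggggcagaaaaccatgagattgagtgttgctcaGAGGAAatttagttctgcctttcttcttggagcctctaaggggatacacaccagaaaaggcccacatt
Klra8: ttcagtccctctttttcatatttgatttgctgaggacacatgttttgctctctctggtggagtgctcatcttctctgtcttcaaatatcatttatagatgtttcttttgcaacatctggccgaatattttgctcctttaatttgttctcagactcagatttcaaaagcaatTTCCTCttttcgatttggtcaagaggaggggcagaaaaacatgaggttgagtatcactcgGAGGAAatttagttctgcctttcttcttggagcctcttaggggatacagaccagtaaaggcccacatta
Klra17: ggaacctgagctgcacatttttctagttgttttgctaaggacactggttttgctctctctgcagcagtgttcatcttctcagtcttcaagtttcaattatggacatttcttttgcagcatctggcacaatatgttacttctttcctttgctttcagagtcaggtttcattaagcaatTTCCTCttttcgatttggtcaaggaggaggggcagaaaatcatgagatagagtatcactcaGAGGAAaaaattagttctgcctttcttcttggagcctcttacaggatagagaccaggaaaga
Klra2: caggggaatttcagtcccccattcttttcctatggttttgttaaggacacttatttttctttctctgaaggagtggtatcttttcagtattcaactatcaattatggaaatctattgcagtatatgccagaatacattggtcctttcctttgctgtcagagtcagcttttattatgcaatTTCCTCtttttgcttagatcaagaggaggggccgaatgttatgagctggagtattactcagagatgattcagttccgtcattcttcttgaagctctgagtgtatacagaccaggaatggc

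In global alignments, Klra4 and Klra8 were identical at 259 of 300 positions (86.33%). Klra17 (Ly49Q), a receptor of pDC, matched Klra8 at 244 positions and Klra4 at 243, so a gene found in another cell type had a promoter almost as similar. Klra2 (Ly49B), a receptor of myeloid cells, matched Klra17 at 229, Klra4 at 222 and Klra8 at 221. The capitals in these 4 sequences are the PU.1 box GAGGAA or its reverse complement, which Klra4, Klra8 and Klra17 hold at 2 places each and Klra2 at 1. Over the family 14 of 24 promoters held that box, 8 held the RUNX core TGTGGT and 2 the T-box half-site AGGTGT. Among all 27025 promoters of the table the shares were 28.31%, 16.92% and 13.85%. Several promoters of the family are near copies of each other, with Klra3 and Klra9 identical at 271 of 300 positions. The family counts are therefore not counts of independent promoters. These are matches of letters only, and the files hold no binding data.

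The CD94/NKG2 receptors pair CD94 (Klrd1) with an NKG2 chain and read Qa-1, a non-classical class I molecule. Klrd1 was detected in 117 of 127 and 64 of 72 cells, at 654 (603 to 708) and 783 (703 to 869) CPM, and its ratio was 0.26 (0.07 to 0.45). Klrc1 (NKG2A), the inhibitory chain, stood at 414 (374 to 458) and 791 (712 to 878) CPM, in 93 of 127 and 57 of 72 cells, a ratio of 0.93 (0.72 to 1.14). Klrc1 stood further apart between the libraries than its partner, and it passed 1.5-fold in 14 of 15 alternative settings. Klrc2 (NKG2C), an activating chain, was at 316 and 489 CPM with a ratio of 0.63 (0.37 to 0.88), and passed in 4 of them. Klrc3 (NKG2E) was at 55.4 and 64.1 CPM. Klrc1 shares 36.6% of its windows with Klrc2, so reads could pass between these chains. Of the cells with Klrc1, 85 of 93 and 53 of 57 also had Klrd1. Given how many cells had each gene, 85.7 and 50.7 cells with both would be found without any link.

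Klrk1 (NKG2D), the activating receptor for stress-induced ligands of the Raet1, Ulbp and H60 families, was found in 125 of 127 and 70 of 72 cells. Its level was 760.4 (706 to 818) and 984 (894 to 1079.6) CPM, a ratio of 0.37 (0.20 to 0.54) that stays under 1.5-fold.

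KLRE1 joins KLRI1 to form an inhibitory receptor and KLRI2 to form an activating one. Klre1 stood at 464 (422 to 510.0) and 787 (707 to 873) CPM with a ratio of 0.76 (0.56 to 0.97). Klri2 stood at 362 (325 to 403) and 601 (532 to 677) CPM with a ratio of 0.73 (0.50 to 0.97), while the inhibitory partner Klri1 was at 24.5 and 26.5 CPM. Klre1 and Klri2 passed 1.5-fold in 10 and 7 of the 15 alternative settings. Of the cells with Klri2, 56 of 63 and 34 of 35 also had Klre1. As Klre1 was in 115 of 127 and 67 of 72 cells, 57.0 and 32.6 cells with both would be found without any link.

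The NKR-P1 receptors (Klrb1 genes) read Clr proteins, encoded by the Clec2 genes. Klrb1b, the inhibitory member, stood at 277 (244 to 313) and 676 (603 to 757) CPM, in 87 of 127 and 58 of 72 cells. Its ratio of 1.29 (1.05 to 1.53) ranged from 1.02 to 1.31 over the alternatives. Klrb1c (NK1.1), the classical NK marker and an activating receptor, was at 566 (518 to 616) and 822 (741 to 910.4) CPM, a ratio of 0.54 (0.35 to 0.73). Klrb1a was at 259.9 and 382 CPM, a ratio of 0.56 (0.27 to 0.84), and Klrb1f at 389.8 and 548 CPM, a ratio of 0.49 (0.25 to 0.73). Klrb1b and Klrb1c overlap the gene model Gm44511 on the same strand, and Klrb1f overlaps Gm43992 and Gm44000 on the opposite strand. Whether the counting used strand is not given in the sources used here, so reads of Klrb1f and of its antisense models may not be separated. Klrg1, an inhibitory receptor for cadherins and a mark of mature NK cells, was at only 16 and 19.9 CPM (15 and 9 counts).

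The gate was then divided by genes outside the family. NK-type cells had Eomes (32 and 20 cells), and ILC1-type cells had no Eomes and at least 1 count of Itga1, Il7r, Cd200r1 or Cxcr6 (85 and 49 cells), while 10 and 3 cells were neither. The family level was 6906 (6560.4 to 7265) and 9513 (9006 to 10040.1) CPM in NK-type and 4569 (4409 to 4733) and 7716 (7404 to 8037) CPM in ILC1-type cells. It was higher in the knockout-labelled library in both, with ratios of 0.46 (0.35 to 0.57) and 0.76 (0.68 to 0.83).

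Klra4 and Klra8 were nearly lacking from ILC1-type cells, and each was counted in only some NK-type cells. In NK-type cells Klra4 was at 586 and 1125 CPM, in 13 of 32 and 10 of 20 cells, against 4.44 and 0 CPM in ILC1-type cells. Klra8 was at 415 and 1291 CPM, in 10 and 11 cells, against 1.48 and 0 CPM. In the control-labelled library the log2 ratio of NK-type over ILC1-type was 7.04 (5.46 to 9.34) for Klra4. ILC1-type cells of the knockout-labelled library had no count of either. With a floor of 3 counts put in place of 0, Klra4 was 112-fold and Klra8 128-fold higher in NK-type cells, values that depend on that floor. Klra1 was likewise counted only in NK-type cells of these, at 83.1 and 108 CPM.

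The inhibitory Klra9, Klra7 and Klra3 were also higher in NK-type cells. Klra9 was at 295 and 555 CPM in NK-type and 114 and 235 CPM in ILC1-type cells. Klra7 was at 175 and 361 CPM in the first and 37 and 0 CPM in the second, so no count of it was found in knockout-labelled ILC1-type cells. Klra3 was at 240.0 and 115 CPM in NK-type and 74.1 and 6.7 CPM in ILC1-type cells, so its lower level in the knockout-labelled library was seen in both kinds of cell, and in ILC1-type cells it was counted in 16 of 85 against 1 of 49.

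Several receptors leaned the other way. Klrb1a was at 157 and 252 CPM in NK-type and 287 and 419 CPM in ILC1-type cells, and Klrc1 at 249.3 and 469 CPM in the first and 449 and 955 CPM in the second. Klrb1c was higher in NK-type cells of the control-labelled library (683 against 530 CPM) and higher in ILC1-type cells of the knockout-labelled one (978 against 483 CPM). Klrk1 and Klrd1 differed little, with Klrk1 at 891 and 930.3 CPM in NK-type and 715 and 995 CPM in ILC1-type cells. Of the members measured, 7 of 17 were at least 1.5-fold higher in NK-type cells and 3 lower in the control-labelled library, against 15.6% and 27% of all measured genes. In the knockout-labelled library the counts were 4 and 4 of 15, against 20.3% and 22.8%. Klra4 and Klra8 were measured in both libraries only through NK-type cells, as was Klra7 in the knockout-labelled one, so their direction was fixed.

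**Figure D3:**
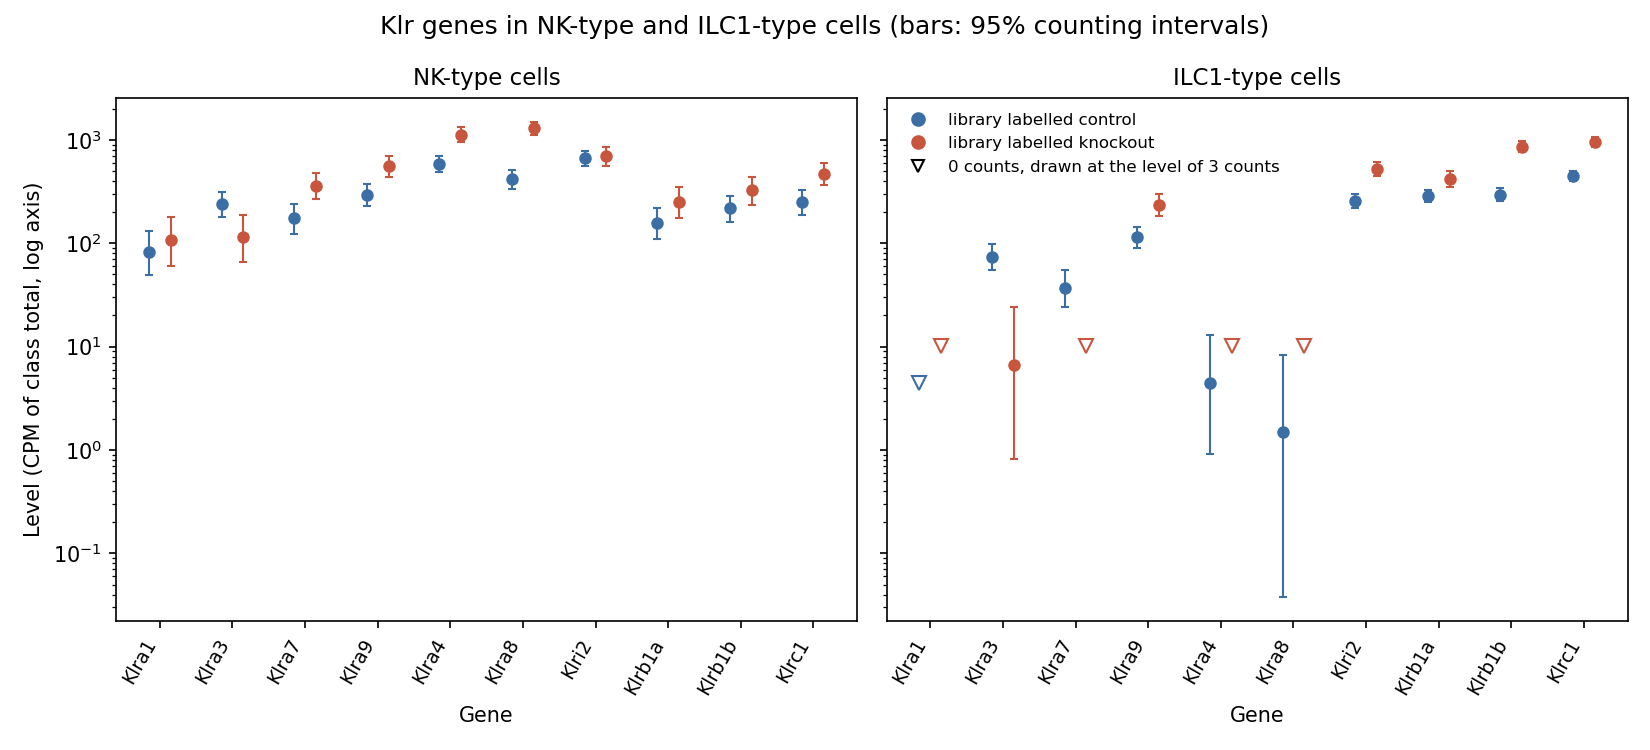
Level of 10 Klr genes (x axis) in NK-type cells (left) and ILC1-type cells (right), in CPM on a log y axis, with 1 point per library, bars for the exact 95% Poisson interval and open triangles at the level of 3 counts where no count was found. Klra4 and Klra8 drop from at least 415 CPM on the left to at most 4.44 CPM on the right, while Klrb1a and Klrc1 are higher on the right.

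Cells also differed in how many receptors they carried. Over 9 Ly49 genes (Klra without Klra2 and Klra17), NK-type cells had counts of 2.03 ± 1.80 and 2.95 ± 1.99 genes (mean ± SD over cells), with a maximum of 6 in either library. Cells with none were 7 of 32 and 4 of 20. ILC1-type cells had 0.494 ± 0.718 and 0.245 ± 0.480, and none in 51 of 85 (60%) and 38 of 49 (77.6%). Over the other 16 members NK or ILC1 cells had 8.56 ± 1.49 and 8.85 ± 1.69 genes, with a median of 9 in both libraries and none without any. B cells had no Ly49 count in 198 of 200 and 245 of 246 cells. The SD is over cells of 1 animal and is no error between animals.

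In CD8 T cells the family was lower in the knockout-labelled library, at 1697 (1594 to 1805) and 1047 (970.5 to 1129) CPM, a log2 ratio of -0.70 (-0.84 to -0.55). None of the 13 measured members was at least 1.5-fold higher and 7 were lower, where 14.4% and 15% of all 7694 measured genes were higher and lower. The median over the members was -0.70, and over all measured genes 0.04. Klra1, Klra6 and Klra7, nearly lacking from the knockout-labelled library, were measured only through the control-labelled one, so their direction was fixed. In the control-labelled library NK or ILC1 cells exceeded CD8 T cells by 1.64 on the log2 scale, and in the knockout-labelled library by 3.0. By member, 17 of 20 and 16 of 17 were at least 1.5-fold higher in NK or ILC1 than in CD8 T cells, against 22.8% and 21.3% of all genes, and 3 and 0 were lower, against 11.9% and 13.7%. Members such as Klra4, with no count in CD8 T cells, were measured there only through NK or ILC1 cells, so their direction was fixed.

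The 3 members that were lower in NK or ILC1 than in CD8 T cells of the control-labelled library were Klra1, Klra6 and Klra7, all inhibitory Ly49 genes. Klra1 in CD8 T cells was at 110.0 (84.9 to 140.2) and 1.53 (0.0387 to 8.52) CPM, in 15 of 91 and 1 of 105 cells. Klra6 was at 91.4 (68.6 to 119) and 3.06 (0.37 to 11) CPM, in 18 of 91 and 2 of 105 cells. Klra7 was at 211 (176 to 252) and 3.06 (0.37 to 11) CPM, in 22 of 91 and 1 of 105 cells. These genes were thus nearly lacking from CD8 T cells of the knockout-labelled library, with log2 ratios of -6.17 (-11.49 to -3.64), -4.90 (-7.98 to -2.98) and -6.11 (-9.17 to -4.23), each resting on 1 or 2 counts there. Median depths of CD8 T cells were 5053 and 5214 counts. With every cell thinned to 3000 counts the shares of cells were 12.1% and 0.952% for Klra1, 14.3% and 0.952% for Klra6, and 20.9% and 0.952% for Klra7. In B cells Klra1 and Klra6 had no count, and Klra7 was in 1 of 200 control-labelled cells.

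At least 1 of Klra1, Klra6 and Klra7 was counted in 29 of 91 CD8 T cells (31.9%, exact Clopper-Pearson interval 22.5% to 42.5%) of the control-labelled library and in 4 of 105 (3.81%, 1.05% to 9.47%) of the other. Over the alternative settings the shares ran from 26.4% to 31.2% and from 2.86% to 4.59%. Most of the 29 cells were in the T cluster, where 23 of 84 carried these genes, and 6 were among the 7 CD8 T cells of the NK cluster. In the control-labelled library 6 cells had counts of all 3 genes, and 13 of the 18 cells with Klra6 also had Klra7.

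Some other genes also differed between these cells and the remaining CD8 T cells of the control-labelled library, and some did not. Ikzf2 (Helios), a transcription factor of regulatory and innate-like T cells, was counted in 26 of the 29 cells and in 5 of the other 62 control-labelled CD8 T cells, at 349 and 72.4 CPM. Among all CD8 T cells Ikzf2 was found in 31 of 91 and 4 of 105, and in only 1 of the 4 knockout-labelled cells with these receptors. The coreceptor chain Cd8b1 was at 165 against 831 CPM, in 13 of 29 and 59 of 62 cells, and Cd8a at 436 against 708 CPM. Il2rb, a subunit of the interleukin-2 and interleukin-15 receptors, was at 1216 against 791 CPM. Gzma, a killer granule protease, was at 1225 against 611 CPM, but was counted in only 10 of the 29 cells. Il7r, the interleukin-7 receptor, was lower, at 702 against 1169 CPM. Klrk1 was higher in the same 29 cells, at 390.0 against 169 CPM, as was Klrd1 at 454 against 247 CPM. Intervals overlapped for Klrc1 (206 against 155 CPM), Eomes (147 against 145 CPM), Cxcr6 (78.0 against 75.1 CPM) and Cd44 (211 against 182 CPM). The T cell receptor constant gene Trac was at 853 against 1088 CPM, and Trdc, of the gamma-delta receptor, had no count in the 29 cells. Median depth was alike, at 5026 and 5146.5 counts. All these cells come from 1 animal and were chosen after the data had been seen, so no test is given.

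The other 4 members that were at least 1.5-fold lower in CD8 T cells were Klrb1c, Klra9, Klrc1 and Klri2. Klrb1c was in 16 of 91 and 4 of 105 cells, with a ratio of -2.70 (-4.10 to -1.53). Klrc1 was at 174 and 107 CPM, with a ratio of -0.70 (-1.16 to -0.25). Klra9 was in 8 and 3 cells and Klri2 in 1 and 2, so both rest on few cells. The broadest members were close. Klrd1 was in 60 of 91 and 75 of 105 cells, at 323 and 318 CPM, a ratio of -0.02 (-0.31 to 0.27). Klrk1 was at 250.4 and 258 CPM, a ratio of 0.05 (-0.28 to 0.37). Summed other-lineage markers in CD8 T cells were 1076 and 595 CPM for endothelial cells (8 of 8 in both), 878 and 97.9 for hepatocytes (7 of 7 in both) and 2396 and 1521 for NK or ILC1 cells, where 8 of 8 and 7 of 8 were present and Ncr1 was at 0 in the knockout-labelled library. Without cells above 2 counts of a marker of another lineage, the family ratio in CD8 T cells was -0.63 (-0.80 to -0.47).

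**Figure D4:**
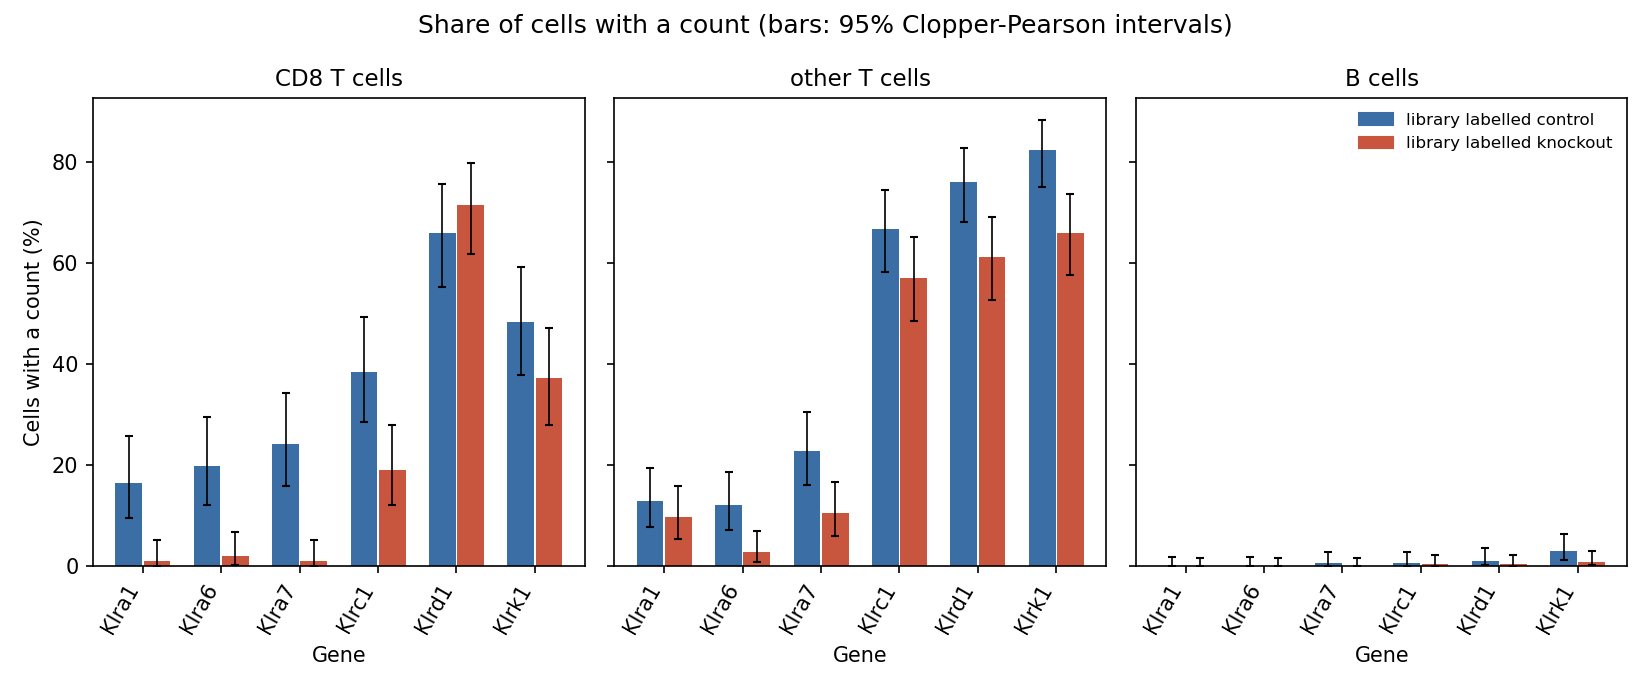
Share of CD8 T, other T and B cells with a count of 6 Klr genes, in percent, as 1 column per library with bars for the exact Clopper-Pearson 95% interval. In CD8 T cells Klra1, Klra6 and Klra7 reach 16.5%, 19.8% and 24.2% in the control-labelled library and stay near 0 in the other, while in B cells every share is near 0.

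In CD4 T cells the family was low, and 4 of 10 measured members were at least 1.5-fold higher and 1 lower in the knockout-labelled library, against 16.7% and 15.2% of all genes. Klrb1c was at 110.5 and 229 CPM, in 15 of 63 and 34 of 99 cells. Klrc2 was at 60.3 and 121 CPM, Klrb1f at 35.2 and 61.2 CPM and Klre1 at 47.7 and 79.9 CPM. The ratios of Klrb1f, 0.80 (-0.13 to 1.80), and Klre1, 0.74 (-0.05 to 1.59), include 0. Klrg1 was the lower one, at 65.3 and 6.8 CPM, in 6 and 3 cells. Klrk1 (196 and 189 CPM) and Klrc1 (153 and 134 CPM) were close. With the libraries clustered apart, the ratios of Klrb1c and Klrc2 turned to -2.70 and -2.33, with 54 knockout-labelled cells in the gate. Summed erythroid markers in CD4 T cells were 821 and 3104 CPM (3 of 6 and 6 of 6), hepatocyte markers 357 and 119 CPM (6 of 7 and 7 of 7) and endothelial markers 874 and 934 CPM (8 of 8 in both). Without cells above 2 counts of a marker of another lineage, the ratios of Klrb1c and Klrc2 were 1.19 (0.57 to 1.86) and 1.36 (0.38 to 2.45).

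Other T cells, which include 19 and 24 cells with Trdc counts, carried the highest family level among T cells. Of 19 measured members 5 were at least 1.5-fold higher and 3 lower in the knockout-labelled library, against 16.2% and 18.3% of all genes. Klrb1c was at 250.2 and 496 CPM, in 83 of 141 and 102 of 144 cells, and Klrc2 at 246 and 447 CPM. Klra5 was at 25.3 and 81.3 CPM, in 5 and 9 cells, Klra8 at 33.1 and 136 CPM, in 3 and 7, and Klra4 rested on 1 and 2 cells. Klrk1 (587 and 645 CPM) and Klrd1 (419 and 469.8 CPM) were close. Summed endothelial markers in other T cells were 1784 and 1053 CPM (8 of 8 in both) and erythroid markers 1785 and 3084 CPM (5 of 6 and 4 of 6). Cells with more than 2 counts of a marker of another lineage were 42 of 141 and 17 of 144, and without them the ratios of Klrb1c and Klrc2 were 0.90 (0.63 to 1.18) and 0.66 (0.39 to 0.94).

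Klra7, at 165 and 67.1 CPM in 32 of 141 and 15 of 144 cells, was lower in other T cells of the knockout-labelled library, as were Klra6 (36.4 and 16.8 CPM) and Klrb1a (106 and 47.8 CPM). Cells with Klra1, Klra6 or Klra7 were 40 of 141 (28.4%) and 21 of 144 (14.6%). In the T cluster they were 30 of 100 and 12 of 126. Those in the NK cluster went the other way, with 10 of 41 (24.4%) and 9 of 18 (50%). The difference over all other T cells also depended on the setting. Without cells that carry markers of another lineage it was 22 of 99 cells (22.2%, 14.5% to 31.7%) and 19 of 127 (9.25% to 22.4%). With gates over all cells low in other markers it was 19.3% (12.5% to 27.7%) and 13.2% (8.13% to 19.8%), so the intervals overlap under both. With the libraries clustered apart the shares were 26.9% and 37.5%, the other way round, and the 3 ratios changed sign, to 0.67 for Klra7, 0.85 for Klra6 and 1.0 for Klrb1a, with 32 knockout-labelled other T cells left in the gate.

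Outside the lymphocytes, 2 Ly49 genes were highest in other cell types, Klra2 in monocytes and Klra17 in pDC. Klra2 was in 693 of 836 and 107 of 131 monocytes, at 439.9 (422 to 459) and 458 (419 to 501) CPM. In Kupffer cells it was at 209 (199 to 220.1) and 245 (239 to 251) CPM, and in neutrophils at 90.7 and 66.5 CPM. Its monocyte level differed little between libraries, with a ratio of 0.06 (-0.08 to 0.20). In an unnamed macrophage cluster led by Mmp12, Gpnmb and Trem2, of 660 and 88 cells, Klra2 was at 205 and 442 CPM, a ratio of 1.11 (0.96 to 1.26). NK or ILC1 cells had 8 and 2 counts of it.

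Klra17, whose product is known as a receptor of plasmacytoid dendritic cells, was at 284 (207 to 382) and 368 (309 to 435) CPM in pDC, in 19 of 28 and 37 of 46 cells. It was at 50.4 and 39.3 CPM in neutrophils and at 45.4 and 51.6 CPM in an unnamed dendritic cluster led by Cd209a and Mgl2. In the Mmp12 cluster its 2.97 and 35.5 CPM rested in the knockout-labelled library to 47.4% on 1 cell. Klra17 overlaps Gm17631 and Gm44248 on the opposite strand. The promoters printed for Klra2 and Klra17 are those of these myeloid and pDC genes.

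Klrd1 was also found in pDC, at 310.2 (229 to 411) and 304 (250.3 to 365) CPM, in 18 of 28 and 37 of 46 cells. No pDC had a count of its NKG2 partners Klrc1 or Klrc2, which allows up to 19.4 and 8.06 CPM at 3 counts. The 8 NK or ILC1 markers summed to 6.46 and 2.69 CPM in pDC, 1 count in each library. In the Cd209a cluster Klrd1 was at 164 and 374 CPM, and in cDC at 31.4 and 39.2 CPM.

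Klrk1 was found in macrophages and dendritic cells too. Kupffer cells held 67 (61.3 to 73.1) and 77.9 (74.4 to 81.6) CPM, in 293 of 623 and 863 of 1354 cells, at median depths of 11362 and 17282 counts. In the same cells Klrd1, which NK or ILC1 cells carry beside Klrk1, had 3 and 5 counts, and the NK or ILC1 markers summed to 6.02 and 1.83 CPM. Klrk1 was at 129 and 162 CPM in cDC, 102 and 125 CPM in the Cd209a cluster, 103 and 188 CPM in a cluster led by Ccr7 and Il12b, 47.4 and 53.3 CPM in the Mmp12 cluster and 11.4 and 24.2 CPM in monocytes. The monocyte ratio of 1.08 (0.35 to 1.77) changed sign under 5 of the alternative settings and is not counted as a difference.

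Among the dendritic cells, Klri1 was at 19.3 and 23.6 CPM in cDC and 33.4 and 72.2 CPM in the Cd209a cluster, levels near or above those of NK or ILC1 cells. Klrb1b was in 19 and 13 cDC, at 43.5 (30.5 to 60.2) and 11.1 (6.2 to 18.3) CPM, a ratio of -1.97 (-2.95 to -1.07), so it stood lower in the knockout-labelled cDC while it stood higher in NK or ILC1 cells.

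Klrb1f was found in an unnamed cluster led by Mpo, Elane and Prtn3, genes of granulocyte precursors. It was at 29.1 (20.6 to 40) and 123 (112 to 135) CPM there, in 20 of 108 and 126 of 200 cells, a ratio of 2.08 (1.60 to 2.60), at median depths of 10674 and 16965 counts. After thinning to 3000 counts the shares were 7.41% and 24%. The cells richer in basophil markers held it in 1 of 22 and 1 of 15, and the remaining cells in 22.1% and 67.6%. In monocytes Klrb1f was at 7.69 and 42.8 CPM, a ratio of 2.48 (1.83 to 3.13) that ranged from 1.32 to 2.49 over the alternatives, so Klrb1f stood higher in the knockout-labelled library in both groups. Neutrophils had 1 and 44 counts, 5.04 (0.128 to 28.1) and 25.4 (18.5 to 34.1) CPM, and their ratio of 2.34 (-0.22 to 7.67) includes 0. The antisense models named for this gene apply here too.

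**Figure D5:**
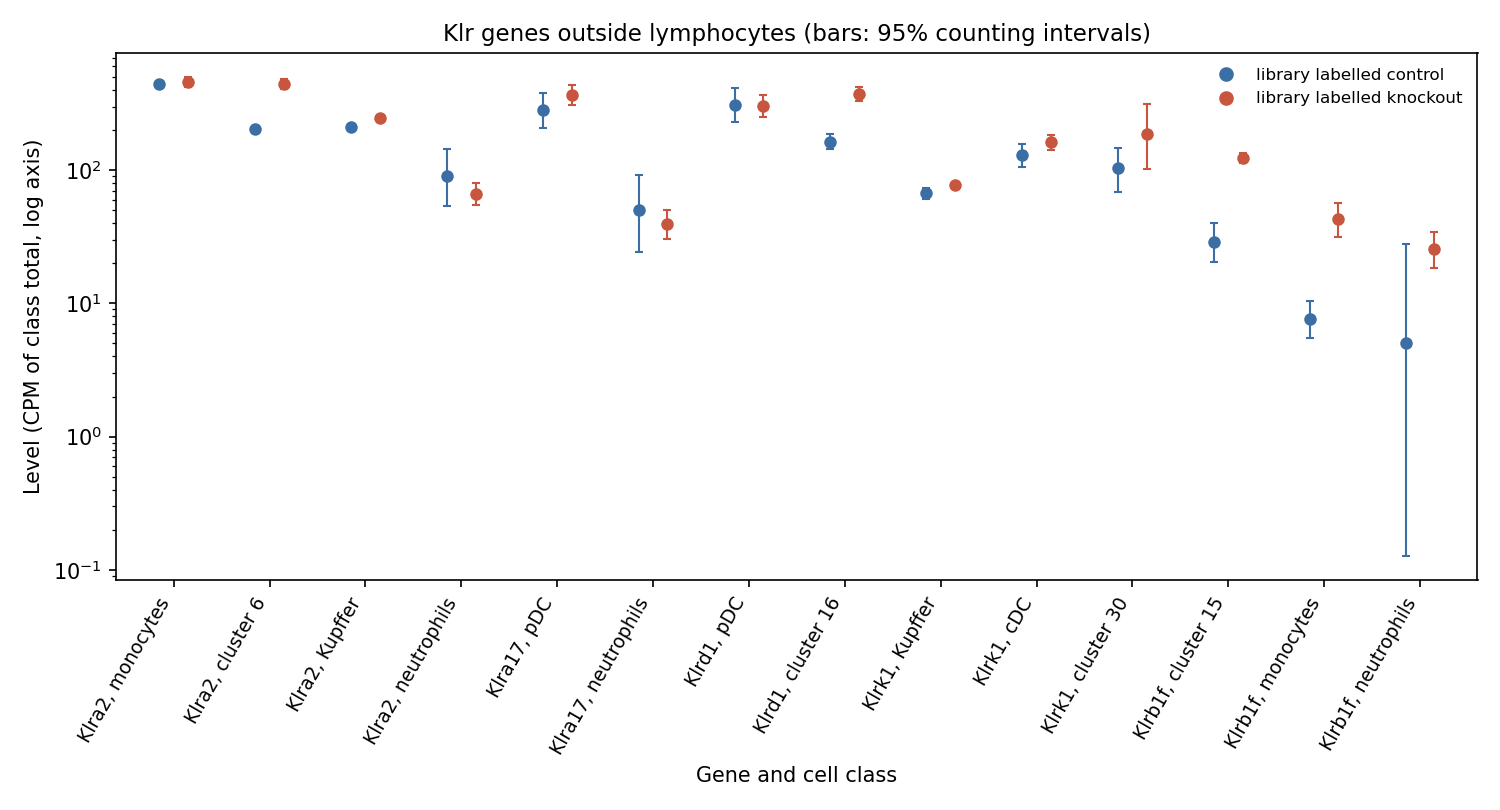
Level of Klra2, Klra17, Klrd1, Klrk1 and Klrb1f in cell classes outside the lymphocytes (x axis), in CPM on a log y axis, with 1 point per library and bars for the exact 95% Poisson interval; clusters 6, 15, 16 and 30 are those led by Mmp12, by Mpo, by Cd209a and by Ccr7. Klra2 in monocytes (439.9 and 458 CPM) and Klrd1 in pDC lie level between the libraries, and Klrb1f lies apart in cluster 15 (29.1 and 123 CPM) and in monocytes, while its intervals overlap in neutrophils.

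Genes for adaptors and proximal signalling, among them kinases and phosphatases, were examined as a list of 12, all measured in NK or ILC1 cells. Of these 3 were at least 1.5-fold higher in the knockout-labelled library and none lower, against 15.3% and 18.3% of all measured genes, and their median log2 ratio was 0.45 against 0.03 over all genes. Hcst (DAP10), the partner of NKG2D, was at 105 and 254 CPM, a ratio of 1.27 (0.87 to 1.67). Cd247 (CD3 zeta) was at 51.1 and 139 CPM, a ratio of 1.45 (0.88 to 2.02), and Lck, a proximal kinase, at 348 and 553 CPM. Tyrobp (DAP12), the partner of the activating Ly49 receptors, was at 610.2 and 772 CPM, a ratio of 0.34 (0.14 to 0.53). Among CD8 T cells 3 of the 12 were higher and 3 lower (median 0.32), against 14.4% and 15% of all genes. Among other T cells 1 was higher and 2 lower (median 0.23), against 16.2% and 18.3%.

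Of 19 ligand genes 6 were measured in NK or ILC1 cells, with 2 higher and none lower, against 15.3% and 18.3% of all genes, and a median of 0.43. H2-T23 (Qa-1), the ligand of CD94/NKG2 receptors, was at 103 and 219 CPM there, 115 and 201 CPM in endothelial cells and 159 and 185 CPM in Kupffer cells. Clec2d, the ligand of NKR-P1B, was at 168 and 161 CPM in endothelial cells. Clec2i, another Clr ligand, was at 44.7 and 130.4 CPM in NK or ILC1 cells and 121 and 172 CPM in B cells. Cdh1 (E-cadherin), a ligand of KLRG1, was at 611 and 662 CPM in cholangiocytes. Raet1e and Ulbp1, ligands of NKG2D, were low, with Raet1e at 28.3 and 29.1 CPM in stellate cells and Ulbp1 at 69.4 and 15.3 CPM in CD8 T cells. Among CD8 T cells none of 6 measured ligands was higher and 1 was lower (median 0.27), against 14.4% and 15% of all genes.

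Lists that describe the state of NK or ILC1 cells held members that differed either way, and their counts stand against 15.3% of all measured genes higher and 18.3% lower. Of 8 NK maturation genes 6 were measured, with 3 higher (S1pr5, Cd27 and Eomes), none lower and a median of 0.41. Eomes was at 129 and 199 CPM and Cd27 at 59.6 and 115 CPM. Of 8 ILC1 and residency genes 3 were higher and 1 lower (median -0.15): Il7r, the interleukin-7 receptor, was at 242 and 729.5 CPM, Cxcr6 at 129.9 and 221 CPM and Cd69 at 43.7 and 86.2 CPM, while the integrin gene Itga1 was at 403 and 225 CPM. Eomes, Itga1, Il7r, Cd200r1 and Cxcr6 took part in the gates. Summed endothelial markers in the NK or ILC1 gate were also lower, at 3218 and 1428 CPM, and monocyte markers higher, at 586 and 785. Whether RNA of other cells enters the Itga1 level was not tested. Of 7 cytotoxic genes 3 were higher and 1 lower (median 0.31), with Prf1 (perforin) at 141 and 274 CPM, Fasl at 91.6 and 241 CPM and Ccl5 at 3251 and 5562 CPM, and Gzma the lower one at 3243 and 1335 CPM. In CD8 T cells the same 3 lists had 2 higher and 1 lower of 6, 3 higher and 2 lower of 7, and 4 higher and 1 lower of 7, with medians of 0.21, 0.43 and 1.05, against 14.4% and 15% of all genes.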

How the data were processed

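RNA of single liver cells was counted in 1 library per label, and groups follow the genotype labels. The deposited matrices hold raw counts, as whole numbers for each barcode and gene, made with GRCm39 per the submitters' processing notes. The counting tool, strand setting and collapse of molecular identifiers were not given in the sources used here. Library totals were 106208933 and 129802501 counts.

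Barcodes had to reach 300 genes and 500 counts with mitochondrial counts no higher than 25%, which kept 7917 and 8799. The automatic doublet threshold marked 0 and 1 cells and had not worked, so the highest 5% of scores were removed (344 and 371). Scanpy 1.11.5 clustered 2000 variable genes (30 components, 15 neighbours, Leiden resolution 1.0). Clusters were named from marker lists, with score thresholds set after the clusters had been seen. Gates are given with the results. Mixed cells were those with more than 2 counts of Cd79a, C1qa, C1qb, Clec4f, Stab2, Alb or Lyz2. Every member is accounted for, and those with 20 counts over both libraries in some class are described. The members and lists were chosen with earlier results of these data known. Levels have exact Poisson and ratios exact conditional intervals at 95% (SciPy 1.17.1), with a floor of 3 counts. Ratio intervals were tested on simulated Poisson counts, the model that the intervals assume. The simulation leaves out that counts of a gene gather in some cells, so it cannot show how well the intervals hold for these data. Without stated collapse of identifiers the intervals may be too narrow. Shared windows were counted in GENCODE M21 transcripts.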

Additional observations from a re-analysis of the deposited data

How the results depend on the processing

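No paired analysis was possible because each label has 1 library, and leaving out a library would leave nothing to compare. The family ratio in NK or ILC1 cells (0.67) was positive under all 14 alternatives run for it, at 0.46 with a stricter and 0.49 with a looser cell filter, 0.44 with called doublets kept, 0.47 at clustering resolution 2.0, 0.51 with the libraries clustered apart, 0.26 with gates over all cells low in other markers, 0.54 as a mean of per-cell CPM, 0.55 with cells thinned, 0.58 with median-of-ratios scaling, and 0.32 with mixed cells left out. The family ratio in CD8 T cells (-0.70) was -0.53 with cells thinned. The control-labelled excess of NK or ILC1 over CD8 T cells (1.64) was 1.82, 1.80, 1.83, 1.90, 2.05, 1.76, 1.88, 1.91 and 2.11 under the stricter filter, the looser filter, resolution 2.0, clustering apart, gates over all cells, gates at 2 counts, the per-cell mean, thinning and mixed cells left out. The knockout-labelled excess (3.0) was 2.72 with doublets kept and 3.16 at resolution 0.5.

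The count of members at least 1.5-fold higher in NK or ILC1 cells (10) was 6 with the looser filter, with doublets kept, at resolution 2.0 and with mixed cells left out, 3 with gates over all cells, and 4 at 2-fold. The count lower (1) was 3 with gates over all cells and with mixed cells left out, and 2 with a minimum of 5 counts. In CD8 T cells the count higher (0) was 2 with the stricter filter and the per-cell mean, and 1 with the looser filter, doublets kept, resolution 2.0, clustering apart, gates over all cells, thinning and mixed cells left out. The count lower (7) was 4 with minimums of 50 counts and 50 CPM, and 12 with a minimum of 5 counts.

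With the libraries clustered apart, ratios changed sign for Klrb1c (-2.70) and Klrc2 (-2.33) in CD4 T cells and for Klra6 (0.85), Klra7 (0.67) and Klrb1a (1.0) in other T cells. That setting left 54 CD4 T and 32 other T cells of the knockout-labelled library. Klrk1 in monocytes (1.08) was -2.61 with the looser filter, -0.053 with doublets kept, -0.065 at resolution 0.5, -0.83 at resolution 2.0 and -1.58 with the Klr genes kept in the clustering; the cause was not tested. Of 1710 other values, 222 moved by more than their counting interval. Depth limits the members with few counts: Klra5, Klra6 and Klrg1 in NK or ILC1 cells, and Klra1, Klra6 and Klra7 in knockout-labelled CD8 T cells.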

Other observations

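Values that belong to no named class were as follows. In an unnamed cluster of 111 and 108 cells with both endothelial and T cell markers, the family stood at 681 and 759 CPM, with Klrb1c at 55.1 and 137 CPM, Klrk1 at 119.6 and 132 CPM and Klrc1 at 83.7 and 109 CPM. Klra2 was in 47 and 15 of those cells, at 108 and 35.8 CPM. In an unnamed cluster led by Prc1, Ccna2 and Top2a, genes of dividing cells, Klra2 was at 101 and 91.4 CPM and Klrk1 at 39.9 and 31 CPM. In an unnamed cluster with Kupffer and endothelial markers, of 544 and 592 cells, Klra2 was at 142 and 161 CPM and Klrk1 at 36.8 and 48.1 CPM, both below their Kupffer levels.

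Klrc1 was also counted in Kupffer cells, at 9.76 and 8.72 CPM, where Klrd1, its partner at the cell surface, was at 0.401 and 0.208 CPM. In plasma cells of the knockout-labelled library, Klra5 had 10 counts and Klra9 had 16, in 1 cell each.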
